A study of Mus musculus with 5 samples.

Results

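The genes described here encode subunits of the mitochondrial respiratory chain (complexes I to IV) and of ATP synthase (complex V), the enzymes that carry out oxidative phosphorylation. They were taken from the deposited expression table by symbol (Nduf followed by a, b, c, s or v and a digit, Uqcr, Cox4 to Cox8, Atp5, and Sdha to Sdhd), and kept where any library reached 1 FPKM. FPKM is a fragment count scaled to transcript length and library depth. Of 84 symbols with such a name among 22815 in the table, 79 reached that level: 36 of complex I, 4 of complex II, 8 of complex III, 14 of complex IV and 17 of complex V. The 5 that did not were Cox7b2, Cox8b and Cox8c, each listed at 0 in all libraries, Ndufa4l2, with a highest value of 0.492 FPKM, and Cox4i2, with a highest value of 0.532 FPKM. Just inside the limit stood Cox6a2, whose highest value was 1.53 FPKM, and Cox6b2, whose highest was 1.54 FPKM. The subunits encoded by mitochondrial DNA were not analysed here, and the name rule does not take in a few nuclear subunits such as Ndufab1 and Cyc1, which are given with the related lists.

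The study profiled peritoneal lavage cells of mice aged 8 weeks by Smart-seq2, a low-input RNA-seq method that amplifies full-length cDNA. The groups were wild-type C57BL/6 mice given PBS, the saline control (1 library), wild-type mice given pristane, a hydrocarbon oil that causes peritoneal inflammation (2 libraries), and Irf8-deficient mice given pristane (2 libraries labelled Irf8KO). IRF8 is a transcription factor needed for normal monocyte and dendritic cell development and for restraint of neutrophil production. The labels do not give the time after injection or whether libraries came from separate mice, so p-values measure only the spread between these libraries, and they give no PBS library of the Irf8-deficient genotype. Libraries are called PBS, wild-type pristane 1 and 2, and Irf8KO pristane 1 and 2.

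In the chain, complexes I and II pass electrons from NADH and succinate to ubiquinone, complex III passes them to cytochrome c, and complex IV passes them to oxygen. Complexes I, III and IV pump protons, and complex V makes ATP from the proton gradient. Resident peritoneal macrophages and lymphocytes make much use of oxidative phosphorylation, whereas neutrophils hold few mitochondria and live mainly by glycolysis.

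The libraries differed in their cells. From the low values, the depth was estimated at 2295000 to 5090000 fragments per library, lowest in the PBS library. Irf8 was at 32.4 FPKM in the PBS library, 63.3 and 48.7 in the wild-type pristane libraries and 121 and 59.4 in the Irf8KO libraries, so its RNA was not lower in the libraries labelled Irf8KO (log2 difference 0.60, SE 0.405, adjusted p = 0.471, limma). A deletion that leaves a transcript would not be seen in this value. Irf8KO therefore stands for the label throughout, and every direction given for these libraries rests on it. Summed over 8 mature neutrophil markers, the level was 154 FPKM in the PBS library, 16572 and 14807 in wild-type pristane and 45609 and 23371 in Irf8KO pristane. Over 10 large peritoneal macrophage markers the sum was 2594 FPKM, then 143 and 232, then 1592 and 2700. Over 6 B cell markers it was 3107 FPKM, then 52.7 and 13.9, then 230 and 117, and over 6 inflammatory monocyte markers 75.1 FPKM, then 434 and 5061, then 192 and 104. Neutrophil precursor markers (6 genes) summed to 62.6 FPKM, then 34.9 and 234, then 1363 and 742. A sum follows its highest genes, and single markers differed in direction. In Irf8KO pristane minus PBS, 5 of the 10 macrophage markers were above 0 and 5 below (log2 differences from -4.42 to 0.96). In wild-type pristane minus PBS, 5 of the 6 precursor markers were above 0 and 1 below (from -2.31 to 5.09). Xist, the RNA of the inactive X chromosome, was at 43.5 FPKM in the PBS library and 8.81 in wild-type pristane 2 and at 0.01 or less in the others, whereas the Y-linked Eif2s3y was at 12.9, 23.2 and 25.6 FPKM in wild-type pristane 1 and both Irf8KO libraries and listed at 0 in the other 2. By these 2 genes, sex was mixed in wild-type pristane and not balanced over the groups. In such bulk samples, fewer cells of a type and less RNA per cell cannot be told apart, and the part of these differences in the subunit values was not tested.

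All 5 complexes were well expressed in every library. The median of the genes' mean level was 102 FPKM for complex I, 76.7 for complex II, 145 for complex III, 236 for complex IV and 186 for complex V. The highest gene was Cox4i1, the largest nuclear subunit of cytochrome c oxidase, at 564 FPKM in the PBS library, 629 and 558 in wild-type pristane and 937 and 805 in Irf8KO pristane. Cox8a, another small subunit of that enzyme, followed at 400 FPKM, then 436 and 315, then 706 and 627. In complex V the highest was Atp5e, the epsilon subunit of the F1 stalk, at 381 FPKM, then 450 and 299, then 638 and 610. Only 8 of the 79 genes had a mean under 20 FPKM: 3 of complex I, 3 of complex IV and 2 of complex V. The 2 of complex V were Atp5s and Atp5sl, which carry complex V names and are not regular subunits of the enzyme. FPKM is per length, so these levels can be set side by side, although short transcripts are the least certain.

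As a share of all FPKM in a library, the 79 genes made up 2.17% in the PBS library, 2.12% and 2.04% in the wild-type pristane libraries and 2.50% and 2.52% in the Irf8KO libraries. The Irf8KO libraries were the highest, and the other 3 lay close together. Complex I held 0.621%, then 0.611% and 0.629%, then 0.736% and 0.733%. Complex IV held 0.578%, then 0.611% and 0.528%, then 0.735% and 0.715%. Complex V held 0.642%, then 0.616% and 0.592%, then 0.692% and 0.728%. In complexes I, IV and V both Irf8KO libraries were above the other 3. Complex III held 0.267% in PBS, 0.222% and 0.219% in wild-type pristane and 0.273% and 0.275% in Irf8KO pristane. There too both Irf8KO libraries were the highest, but close to PBS, and the wild-type pristane libraries stood apart as the lowest. Complex II held 0.057%, then 0.063% and 0.076%, then 0.062% and 0.069%, with the groups overlapping.

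**Figure D1:**
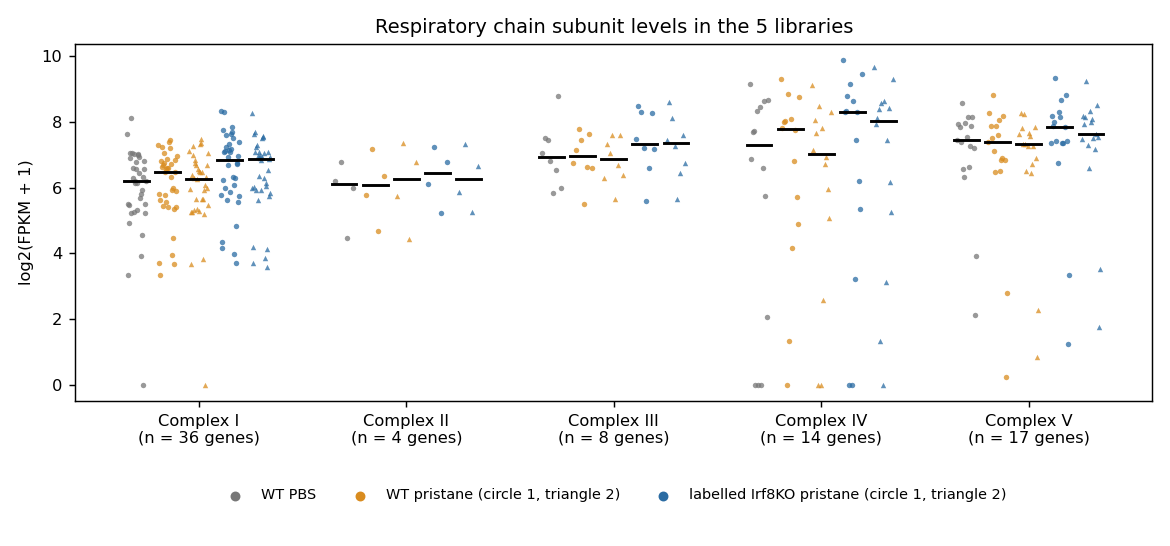
Levels of the 79 subunit genes on the log2(FPKM + 1) scale, by complex and library. Each point is a gene, bars are medians over the genes of a complex in a library, circles and triangles are the first and second library of a group. The medians of complexes I, III, IV and V are highest in the 2 Irf8KO libraries.

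Several subunits exist as a widely expressed form and a form typical of heart and skeletal muscle or other tissues, and these cells used the widely expressed one. Cox4i1 made up at least 99.92% of Cox4i FPKM in every library, Cox6a1 at least 99.55% of Cox6a and Cox6b1 at least 99.66% of Cox6b. The muscle form Cox6a2 was listed at 1.53 FPKM in Irf8KO pristane 2 and the testis form Cox6b2 at 1.54 FPKM in wild-type pristane 1, each at 0 in the other 4 libraries. The Cox7a family was mixed. Cox7a2l encodes a Cox7a-related protein linked to supercomplexes of complexes III and IV, and its function in these mice was not measured. It made up 80.8% of Cox7a FPKM in the PBS library, 62.6% and 52.5% in wild-type pristane and 63.5% and 65.6% in Irf8KO pristane. Its share was higher in PBS than in any pristane library, and the rest was mainly Cox7a2, the widely expressed Cox7a. The 3 genes for the c-ring, the rotor of ATP synthase, encode the same mature protein. Atp5g2 was the largest of them at 48.5% of their FPKM in PBS, 45.4% in wild-type pristane 1 and 44.8% and 47.8% in Irf8KO pristane, and in wild-type pristane 2 it stood at 34.4% with Atp5g3 at 45.5%. Atp5g2 shares 87.7% of its 31-base words with other annotated transcripts, including 2 pseudogenes, so its value is uncertain.

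Pristane and PBS were compared first, in wild-type mice. Of 11117 genes tested, 1183 passed an adjusted p of 0.05 (10.6%; limma, Benjamini-Hochberg over all genes), and of the 79 subunit genes 1 did. That gene rose, as did 5.18% of all genes, and no subunit fell, where 5.46% of all genes did. The subunits had a median log2 difference, on the log2(FPKM + 1) scale, of 0.07 (44 above 0, 34 below), against -0.07 over all genes. By complex the median was 0.17 for I, 0.28 for II, -0.16 for III, 0.15 for IV and -0.14 for V. The spread was narrow: the interquartile range of the subunits ran from -0.30 to 0.34, against -0.66 to 0.57 over all genes. At an unadjusted p under 0.05, 5 subunits were higher and 7 lower, where 15.9% and 17.8% of all genes were. With 1 PBS library, its spread is taken to be that of the pristane pairs, and under quantile normalization the subunit median became -0.36 with 15 of 79 above 0.

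The 1 subunit that rose was Cox7c, a small membrane subunit of complex IV. It was at 3.14 FPKM in the PBS library, 28.8 and 33 in wild-type pristane and 40 and 37.1 in Irf8KO pristane. The PBS library was alone at the low end. The log2 difference of wild-type pristane from PBS was 2.94 (SE 0.20, adjusted p = 0.0247, limma), and that of Irf8KO pristane from PBS was 3.25 (adjusted p = 0.0264, limma). The PBS value corresponds to about 3.9 fragments, and leaving out any 1 of the 4 pristane libraries ended both calls, as it did for every other gene. The log2 difference was then 2.85 to 3.04 for wild-type pristane (adjusted p from 0.0719 to 0.112, limma) and 3.20 to 3.31 for Irf8KO pristane (adjusted p from 0.0639 to 0.155, limma). Cox7c was also below the other widely expressed complex IV subunits in every library, and 55.7% of its 31-base words occur in annotated transcripts of other genes, against a median of 2.2% over the subunits. No single other gene held 50% or more of its words. The sources used here do not say how fragments from shared sequence were placed, so the level of Cox7c is uncertain.

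A second gene with shared sequence was Ndufs5, an accessory subunit of the membrane arm of complex I. It was listed at 11.8 FPKM in wild-type pristane 1 and 12 and 10.9 in the Irf8KO libraries, but at 0.005 FPKM in PBS and 0.002 in wild-type pristane 2, values that correspond to less than 1 fragment. Its libraries fell into a near-zero and a detected set that cut across the groups, and 47.3% of its words occur in other genes' transcripts. The near-zero set, PBS and wild-type pristane 2, was also the set with Eif2s3y listed at 0. That set had the lowest estimated depths, 2295000 and 2933000 fragments, against 3540000 to 5090000 in the others. The part of sex, depth or shared sequence in this split was not tested. The muscle form Cox7a1 was listed at 0 in PBS and at 16.8 and 5.04 FPKM in wild-type pristane and 8.41 and 7.73 in Irf8KO pristane. It shares no word with another gene. Its difference missed the threshold (adjusted p = 0.0631, limma) but passed under some other settings, and no fold is given against a library at 0.

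No subunit passed as lower in this fit, although a few did under other settings, given in the closing section. The lowest log2 differences of wild-type pristane from PBS were those of 2 genes of low level, Atp5s at -1.59 and Atp5sl at -1.40. Atp5s was at 3.39 FPKM in PBS against 0.180 and 0.805 in wild-type pristane, and Atp5sl at 14.2 FPKM against 5.89 and 3.83, with adjusted p = 0.0841 and 0.0699 (limma). Next came 3 abundant genes. Cox7a2l was at 400 FPKM in PBS, 215 and 120 in wild-type pristane and 314 and 344 in Irf8KO pristane. Uqcrh, the hinge protein that helps cytochrome c bind complex III, was at 441 FPKM, then 195 and 191, then 309 and 191. Ndufa4, named for complex I and now placed in complex IV, was at 278 FPKM, then 98.7 and 153, then 135 and 135. In all 3 the PBS library was above every pristane library. Their log2 differences between wild-type pristane and PBS were -1.31 (SE 0.41) for Cox7a2l, -1.19 (SE 0.35) for Uqcrh and -1.17 (SE 0.32) for Ndufa4, and none passed (adjusted p from 0.0957 to 0.117, limma).

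Other subunits were higher in pristane than in PBS without passing. Uqcrc1, a core protein of complex III, was at 111 FPKM in PBS, 175 and 195 in wild-type pristane and 145 and 153 in Irf8KO pristane, a log2 difference of 0.73 (SE 0.19, adjusted p = 0.0858, limma) for wild-type pristane. The PBS library was the lowest of the 5. Ndufv3, an accessory subunit near the NADH site, was at 73.1 FPKM, then 124 and 132, then 168 and 121 (log2 difference 0.80, SE 0.27). Atp5f1, the b subunit of the ATP synthase stalk, was at 93.1 FPKM, then 136 and 159, then 169 and 157 (log2 difference 0.65, SE 0.20). For both, all pristane libraries were above PBS, and neither difference passed (adjusted p = 0.133 and 0.114, limma). The 4 subunits of complex II, the enzyme shared with the citric acid cycle, differed in sign. The flavoprotein Sdha was at 73.1 FPKM in PBS, 53.4 and 52.7 in wild-type pristane and 67.4 and 57.1 in Irf8KO pristane. The iron-sulfur subunit Sdhb was at 110 FPKM, then 145 and 161, then 151 and 160. The membrane anchors Sdhc and Sdhd had log2 differences of 0.08 and 0.59. None of the 4 passed (smallest adjusted p = 0.176, limma).

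**Figure D2:**
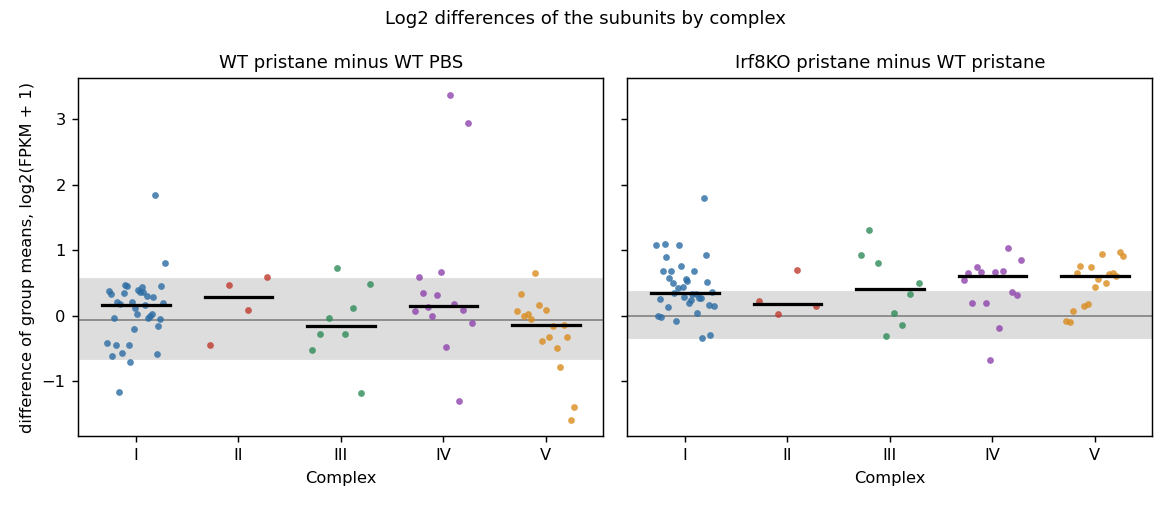
Log2 difference of group means for each subunit gene, by complex, for wild-type pristane minus PBS (left) and Irf8KO minus wild-type pristane (right). Points are genes and black bars complex medians. The grey line and band are the median and interquartile range of all 11117 genes. On the right all 5 complex medians are above the grey line, from 0.18 for complex II to 0.60 for complexes IV and V.

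The Irf8KO libraries were then compared with wild-type pristane. Here 3 of the 11117 genes passed (0.027%), all lower, and none of the 79 subunits did, with a smallest adjusted p of 0.084 (limma). The subunits were mostly higher in the Irf8KO libraries: 68 had a log2 difference above 0 and 11 below, with a median of 0.44 against 0.00 over all genes. Summed FPKM was 484438 and 451694 in the wild-type pristane libraries and 582696 and 518276 in Irf8KO pristane. The log2 differences were not scaled to these sums. As shares of them, the subunits held 2.12% and 2.04%, then 2.50% and 2.52%. Both Irf8KO libraries were above both wild-type pristane libraries for 54 of the 79 (68.4%), where 26.1% of all genes had that pattern, and both were below for 5, where 27.1% of all genes did. At an unadjusted p under 0.05, 31 subunits were higher (39.2%), against 10.5% of all genes, and none was lower, against 10.1%. The median stayed between 0.35 and 0.54 when any 1 pristane library was left out.

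By complex, the median log2 difference from wild-type pristane was 0.60 for complexes IV and V, 0.41 for III, 0.35 for I and 0.18 for II. The Irf8KO libraries did not overlap with and were above the wild-type ones for 13 of 17 complex V genes, 10 of 14 of complex IV, 25 of 36 of complex I, 4 of 8 of complex III and 2 of 4 of complex II. These differences between complexes were not tested. Medians by role within a complex rest on few genes, on groupings made after the values were seen and on no test, and the ranges of the roles overlapped in complexes I and V. In complex I, the 7 catalytic core subunits had a median of 0.27 and the 29 accessory subunits 0.44. In complex III, the 5 small subunits had a median of 0.80, whereas the 2 core proteins were at -0.31 (Uqcrc1) and 0.05 (Uqcrc2). In complex V, the 5 subunits of the F1 head and central stalk had a median of 0.07, the c-ring genes 0.44, the peripheral stalk 0.58 and the small membrane subunits 0.63.

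The gene with the smallest p was Uqcr11, a small membrane subunit of complex III. It was at 182 FPKM in PBS, 139 and 161 in wild-type pristane and 355 and 389 in Irf8KO pristane. Both Irf8KO libraries were above all 3 others. The log2 difference from wild-type pristane was 1.30 (SE 0.17, adjusted p = 0.084, limma), a 2.47-fold difference on the log2(FPKM + 1) scale. It passed when the 4 pristane libraries were fitted alone (adjusted p = 0.0342, limma). Uqcr10, another small subunit of that complex, was at 133 FPKM, then 108 and 77.7, then 177 and 173 (log2 difference 0.93, SE 0.22). The Rieske iron-sulfur protein Uqcrfs1, a catalytic subunit of the same complex, was at 92.0 FPKM, then 97.2 and 102, then 95.7 and 85.3, a log2 difference of -0.14 (95% interval -0.56 to 0.29).

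In complex I the farthest from wild-type pristane were accessory subunits. Ndufa1, a small membrane-arm subunit encoded on the X chromosome, was at 197 FPKM in PBS, 156 and 139 in wild-type pristane and 319 and 305 in Irf8KO pristane (log2 difference 1.08, SE 0.16, adjusted p = 0.0981, limma). Ndufa2, an accessory subunit of the electron-input arm, was at 131 FPKM, then 111 and 82.7, then 216 and 195. Ndufb11, another X-linked membrane-arm subunit, was at 70.0 FPKM, then 45.8 and 39.5, then 102 and 81.2. For all 3 genes the wild-type pristane libraries were the lowest and the Irf8KO libraries the highest of the 5. Any part of the uneven sex of the libraries in the X-linked Ndufa1 and Ndufb11 was not tested. Ndufv1, the core subunit that binds NADH, went the other way at 44.1 FPKM in PBS, 58.7 and 62.3 in wild-type pristane and 46.1 and 52.5 in Irf8KO pristane (log2 difference -0.29, 95% interval -0.73 to 0.14). Ndufs4, an accessory subunit of that arm, was at 22.4 FPKM, then 21.1 and 35.8, then 27.5 and 16.7, with the groups overlapping.

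In complex IV, Cox7a2l, Cox8a and Cox6a1 stood highest. Cox6a1 was at 209 FPKM in PBS, 260 and 200 in wild-type pristane and 437 and 334 in Irf8KO pristane (log2 difference 0.74, SE 0.24). Cox7a2 was at 94.9 FPKM, then 111 and 104, then 172 and 173 (log2 difference 0.68, SE 0.15, adjusted p = 0.140, limma). Both Irf8KO libraries were above the other 3 for each of these 2 genes. Cox6c was at 348 FPKM, then 274 and 226, then 397 and 398, so PBS lay between the pristane groups. Cox6b1, which sits on the outer face of the enzyme, was at 324 FPKM, then 457 and 359, then 563 and 380, with overlap between the groups.

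In complex V, Atp5j, a peripheral stalk subunit also called coupling factor 6, was at 98.6 FPKM in PBS, 90.6 and 86.5 in wild-type pristane and 161 and 180 in Irf8KO pristane (log2 difference 0.94, SE 0.15, adjusted p = 0.108, limma). Atp5l, a small membrane subunit at the dimer interface, was at 282 FPKM, then 286 and 230, then 449 and 363. Both Irf8KO libraries were above the other 3 for both. The intervals of the catalytic subunits took in 0. Atp5b, the catalytic beta subunit, was at 242 FPKM, then 307 and 305, then 287 and 286, a log2 difference of -0.10 (95% interval -0.51 to 0.32). Atp5a1, the alpha subunit, was at 173 FPKM, then 168 and 196, then 164 and 177, a log2 difference of -0.09 (95% interval -0.55 to 0.38). In complex II, Sdhc was at 21.2 FPKM, then 24.9 and 20.5, then 36.6 and 37.7 (log2 difference 0.69, SE 0.17, adjusted p = 0.164, limma), whereas Sdhb differed by 0.02 (95% interval -0.41 to 0.45).

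**Figure D3:**
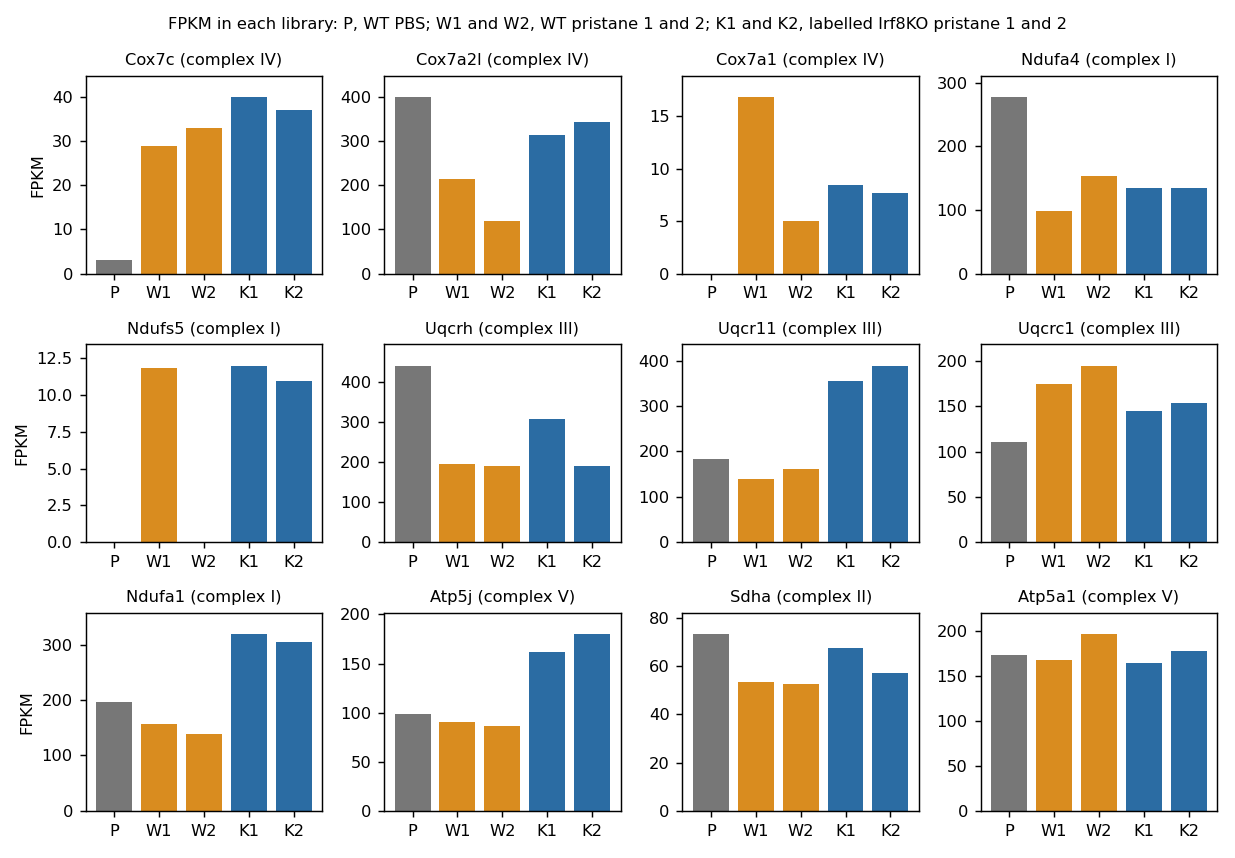
FPKM of 12 subunit genes in each of the 5 libraries, 1 bar per library, from 0. Cox7c is at 3.14 FPKM in the PBS library and at 28.8 to 40 in the pristane libraries. Uqcr11, Ndufa1 and Atp5j are highest in the 2 Irf8KO libraries, while Atp5a1 lies between 164 and 196 FPKM in all 5.

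The difference between the pristane groups varied with transcript length. Respiratory chain transcripts are short, with a median of 758 bases against 2785 over all genes with a length, and some catalytic subunits are among the longer ones: Atp5b at 1916 bases, Ndufv1 at 1661 and Uqcrfs1 at 1363, against 445 for Uqcr11 and 419 for Ndufa1. Across the 79 genes, Spearman's rho between length and the Irf8KO difference was -0.454, and across 10559 other genes it was -0.178. These describe genes of the same 5 libraries, which are not independent. The 51 subunits under 1000 bases had a median log2 difference of 0.57, and the 21 from 1000 to under 2000 bases one of 0.15. Other genes went the same way: 0.40 for 739 genes under 1000 bases and 0.05 for 2508 genes from 1000 to under 2000 bases. Among the 393 other genes with under 1000 bases and a mean level of 20 FPKM or more, the median was 0.45 and 54.2% had both Irf8KO libraries above both wild-type ones, against a median of 0.59 and 87.0% for the 46 subunits of that length and level. Centring every length class on its own median left the subunits a median of 0.15, with 52 of 79 above 0. Thus the subunits stood above short genes in general by less than they stood above all genes. The part of transcript length in the difference between the pristane groups was not tested further. In the comparison of wild-type pristane with PBS, the medians of other genes were -0.06 under 1000 bases and 0.07 from 1000 to under 2000, and rho over the subunits was 0.108. Other genes with a mean of 20 FPKM or more had -0.05 under 1000 bases, 0.37 from 1000 to under 2000 and 0.55 from 2000 to under 4000. Subunits of that level had -0.05 (46 genes), 0.24 (20 genes) and 0.07 (4 genes), so the longer ones lay below other genes of their level.

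**Figure D4:**
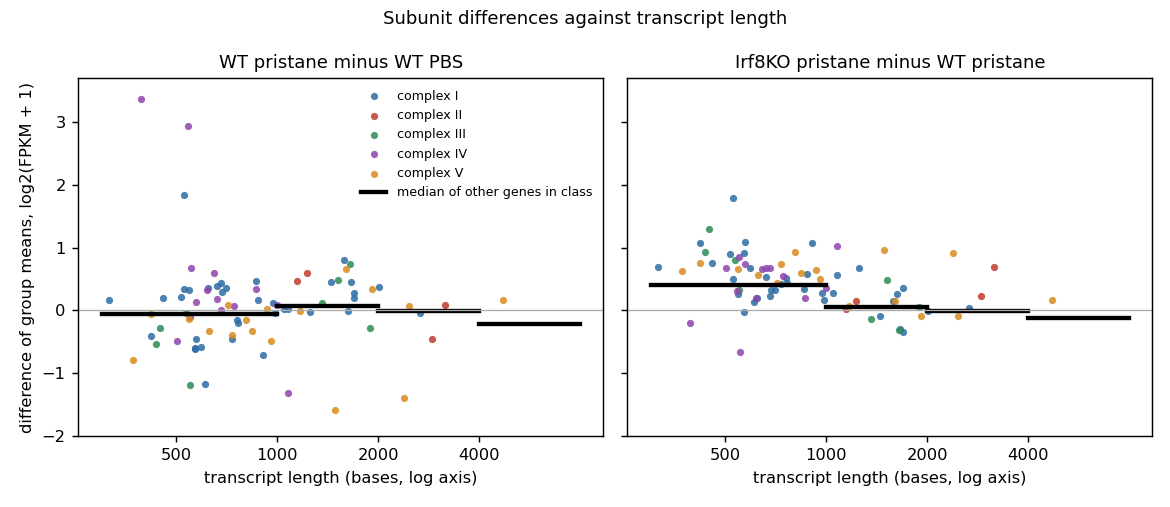
Log2 difference of group means against transcript length in bases (log axis) for the 79 subunit genes, coloured by complex, for wild-type pristane minus PBS (left) and Irf8KO minus wild-type pristane (right). Black bars are the medians of all other genes in the length classes under 1000, 1000 to under 2000, 2000 to under 4000 and 4000 or more bases. On the right both the subunits and the other genes are higher under 1000 bases, with medians of 0.57 and 0.40.

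Compared with PBS, the Irf8KO libraries had 949 genes that passed (8.54%), and Cox7c was the only subunit among them (limma). It rose, as 3.81% of all genes did, and no subunit fell, where 4.72% did. At an unadjusted p under 0.05, 26 subunits were higher and 1 lower, where 15.6% and 18.1% of all genes were. The subunits' median was 0.51 against -0.05 over all genes, with 64 above 0 and 14 below. Both Irf8KO libraries were above the PBS library for 61 of 79 subunits (77.2%), where 40.7% of all genes were, and below it for 9 (11.4%), where 46% were. By complex the median was 0.56 for I, 0.62 for II, 0.41 for III, 0.65 for IV and 0.27 for V. Under quantile normalization the subunit median was -0.07 with 36 of 79 above 0, so the direction of this comparison depended on the scaling, which was not so for the Irf8KO and wild-type pristane comparison (median 0.36, 66 of 79 above 0). The comparisons share libraries and are not independent.

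Other mitochondrial genes were counted in the same way. Of 77 genes of the mitochondrial ribosome, which makes the mitochondrially encoded subunits, 1 rose with pristane in wild-type mice, where 5.18% of all genes did: Mrpl27, from 13.8 FPKM to 38 and 33 (adjusted p = 0.0449, limma). None passed between the pristane groups, where the list's median log2 difference was 0.22 and 54 of 77 were above 0, where 5457 of all 11117 genes were. Assembly factors of complex I (13 genes) had a median of -0.44 in wild-type pristane against PBS and 0.23 in Irf8KO against wild-type pristane, and those of complex IV (20 tested) had -0.10 and 0.19, with no gene past the threshold. Of the complex IV factors, Cox20 had the smallest p between the pristane groups, at 22.2 FPKM in PBS, 15.4 and 12.8 in wild-type pristane and 41.7 and 33.4 in Irf8KO pristane. Pyruvate dehydrogenase and the citric acid cycle (17 tested) had medians of 0.02 and 0.11, also with none past the threshold in these 2 comparisons. Its smallest p between the pristane groups was that of Idh2, the mitochondrial NADP-dependent isocitrate dehydrogenase, at 24.5 FPKM, then 14.6 and 14.4, then 36.0 and 47.6.

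A further list of 6 genes held nuclear subunits outside the naming rule, cytochrome c and Atpif1, the inhibitor of ATP synthase. Of these, Usmg5, a small membrane subunit of ATP synthase, rose with pristane from 209 FPKM to 489 and 556 (adjusted p = 0.0415, limma). Cytochrome c, Cycs, was at 14.9 FPKM in PBS, 30.5 and 37.4 in wild-type pristane and 21.1 and 21.1 in Irf8KO pristane, and did not pass (adjusted p = 0.0543, limma). Between the pristane groups these 6 genes had a median log2 difference of 0.03, where the 79 subunits had 0.44, and none of the 6 passed. Below 0 were 3 (Cyc1 at -0.08, Usmg5 at -0.05 and Cycs at -0.66) and above 0 were 3 (Ndufab1 at 0.21, 2010107E04Rik at 0.10 and Atpif1 at 1.19). Atpif1 was at 121 FPKM in PBS, 161 and 120 in wild-type pristane and 318 and 318 in Irf8KO pristane (adjusted p = 0.114, limma). Of 14 regulators of mitochondrial biogenesis tested, none passed and 12 were below 0 in wild-type pristane against PBS, with a median of -0.53. Tfam, the packaging and transcription factor of mitochondrial DNA, was at 8.91 FPKM in PBS, 1.97 and 2.32 in wild-type pristane and 2.75 and 4.33 in Irf8KO pristane (adjusted p = 0.0562 for wild-type pristane, limma). Nrf1, a transcription factor for respiratory genes, was at 7.22 FPKM, then 6.6 and 10.3, then 6.80 and 5.54.

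Glycolysis and the cytosolic ribosome were set beside the subunits. In wild-type pristane, 10 of 15 glycolytic genes rose, where 5.18% of all genes did, and none fell, with a median log2 difference of 2.37, and between the pristane groups none passed and the median was -0.29. Of 77 cytosolic ribosome genes, 37 fell with pristane, where 5.46% of all genes did, and none rose, with a median of -1.56, and in Irf8KO against wild-type pristane none passed and 75 of 77 were above 0 with a median of 0.52. Of 8 genes that link hypoxia to mitochondria, Hif1a and the mitophagy receptor Bnip3 rose with pristane, against the same 5.18%, Bnip3 from 8.5 FPKM to 110 and 138, and none passed between the pristane groups.

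**Figure D5:**
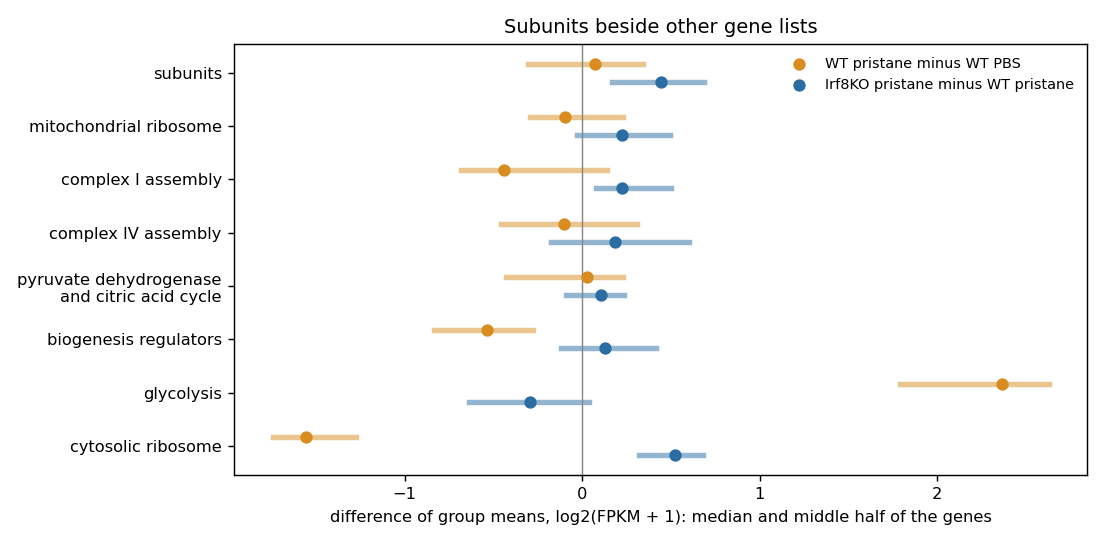
Log2 difference of group means for the subunits and 7 related gene lists. Points are medians and bars the interquartile range of each list's genes, for wild-type pristane minus PBS (orange) and Irf8KO minus wild-type pristane (blue). Glycolysis lies at 2.37 and the cytosolic ribosome at -1.56 in orange, with the subunits at 0.07.

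Promoters of the subunits were searched for motifs that known regulators of respiratory genes bind. Windows from 250 bases before to 50 after the start were available from RefSeq (GRCm38.p6) for 64 of the 79 genes. On both strands, the NRF1 motif was searched as 2 overlapping words around GCATGC, the ETS motif, bound by GABPA among others, as CCGGAAG, and the YY1 motif as 2 words that hold AAGATGG. The NRF1 motif was in 7 of the 64 (10.9%), against 1.5% of 27025 genes with a window, the ETS motif in 16 (25%) against 9.93%, and the YY1 motif in 7 (10.9%) against 1.74%. At least 1 motif was in 27 (42.2%) against 12.5%. The 27025 genes include many outside the 11117 tested here, and the subunits were not set against expressed genes alone. By complex, the ETS motif was in 5 of 13 genes of complex V and 4 of 32 of complex I, and 6 of the 7 genes with the YY1 motif were of complex I. The 4 stretches below are the 250 bases before the start, 5′ to 3′ on the gene's own strand, which is the minus strand for each. They show the gene with the smallest p between the pristane groups (Uqcr11), an abundant complex III gene whose PBS level was highest (Uqcrh), a complex IV gene with both an NRF1 and an ETS match (Cox6a1) and the c-ring gene with overlapping NRF1 matches (Atp5g2). Capitals mark the matches.
Uqcr11 (chr10:80406822-80407071): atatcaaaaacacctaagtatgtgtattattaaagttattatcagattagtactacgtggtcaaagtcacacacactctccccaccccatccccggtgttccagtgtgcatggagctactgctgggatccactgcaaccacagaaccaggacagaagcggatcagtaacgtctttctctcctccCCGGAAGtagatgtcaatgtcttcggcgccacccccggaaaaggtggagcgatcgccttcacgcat
Uqcrh (chr4:116075071-116075320): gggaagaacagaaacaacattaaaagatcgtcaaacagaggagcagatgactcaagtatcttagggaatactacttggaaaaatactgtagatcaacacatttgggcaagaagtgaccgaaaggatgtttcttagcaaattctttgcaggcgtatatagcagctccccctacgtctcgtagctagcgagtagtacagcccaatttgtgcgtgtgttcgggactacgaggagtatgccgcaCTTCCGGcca
Cox6a1 (chr5:115348959-115349208): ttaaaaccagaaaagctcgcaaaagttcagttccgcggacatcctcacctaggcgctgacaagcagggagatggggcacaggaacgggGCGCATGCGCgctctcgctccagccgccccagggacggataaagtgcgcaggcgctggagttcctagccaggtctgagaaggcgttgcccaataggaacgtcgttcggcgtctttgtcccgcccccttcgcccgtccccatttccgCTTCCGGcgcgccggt
Atp5g2 (chr15:102671048-102671297): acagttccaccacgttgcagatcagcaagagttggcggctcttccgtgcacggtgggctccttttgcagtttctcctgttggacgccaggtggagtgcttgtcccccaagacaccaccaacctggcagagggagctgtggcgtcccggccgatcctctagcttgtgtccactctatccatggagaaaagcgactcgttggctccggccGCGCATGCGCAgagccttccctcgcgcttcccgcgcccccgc
Uqcr11 holds 1 ETS match in the CCGGAAG orientation and Uqcrh 1 in the CTTCCGG orientation close to the start. In Cox6a1 the NRF1 match lies farther from the start than the ETS match. Uqcr11, which holds the ETS motif, was at 139 and 161 FPKM in wild-type pristane and 355 and 389 FPKM in Irf8KO pristane. Uqcrh, which also holds it, was at 195 and 191 FPKM and then 309 and 191 FPKM. Whether the motif goes with a difference between the groups was not tested. A match is a run of letters and was not tested for binding in these cells.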

How the data were processed

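The deposited table holds 1 FPKM value per gene symbol and library; the authors used BWA, TopHat2 2.0.10, Cufflinks 2.2.1 and Cuffnorm, per the submitters' processing notes, and the build and annotation are not stated in what was used here. Differences were taken on log2(FPKM + 1) with limma 3.58.1 (trend, R 4.3.3) in 1 fit of 3 group means over all 5 libraries, for the 11117 genes that reached 1 FPKM in any library, with Benjamini-Hochberg adjustment over all of them and a threshold of 0.05. The residual degrees of freedom were 2. Depth was estimated from the step between the lowest values of single-transcript genes (69.3% to 82.3% of such values within 0.15 of a whole number of fragments), so implied fragments are approximate. Lengths are those of the GENCODE vM21 transcript linked to the lowest RefSeq accession (79 of 79 subunits, 10638 of 11117 genes). Shared 31-base words were counted against GENCODE vM21 transcripts of other genes, and 8 of the 79 subunits shared over 40% of them. On simulated data with 100 genes changed by 2 on the log2 scale, the fit recovered 79 between the pristane groups and 0 between wild-type pristane and PBS, and 2 and 0 of 100 changed by 1. Between Irf8KO pristane and PBS it recovered 33 and 0. Unchanged genes called in these comparisons numbered 7, 0 and 4. Few genes were changed, whereas in the data 3 genes passed between the pristane groups and 1183 between wild-type pristane and PBS, so these counts do not measure the power of the comparisons. Subunits named are, per complex, those past the threshold, the 2 highest and 2 lowest in the first 2 comparisons, the 2 most abundant, all of complex II and the isoform families; others (Uqcrc2, Ndufab1 and Cyc1 among them) were named after their values were seen. The members and lists were chosen with earlier results of these data known. Alternatives were another pseudocount, 2 other filters, quantile scaling, no trend, each pristane library left out, the pristane libraries alone, the replicate number as a block, and, added after seeing the data, length-class centring and leaving out 4 subunits listed at or near 0. The count of shared words and the split of length classes at a mean of 20 FPKM were also added after seeing the data.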

Additional observations from a re-analysis of the deposited data

How the results depend on the processing

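With 1 PBS library and 2 in each pristane group, the depth of a short gene can come down to a few fragments, and the count of calls moved with the setting. Leaving out any 1 pristane library left 0 subunits called in each comparison with PBS and between the pristane groups; limma then called no gene of 11117, where 1022 to 3984 had an unadjusted p below 0.05. In wild-type pristane against PBS, where 1 subunit was called, 2 were with a pseudocount of 0.1 and 3 with a mean of at least 5 FPKM. After quantile normalization 3 were called and with length-class centring 4, and Cox7c was among them each time. Cox7a1 was called as higher with the pseudocount of 0.1, the stricter filter and the centring. Other calls were falls: Atp5sl with the stricter filter and the centring, Atp5s with the centring, and Atp5j2 and Ndufb11 after quantile normalization. In Irf8KO pristane against PBS, where 1 was called, 2 were with a pseudocount of 0.1, with a mean of at least 5 FPKM and with length-class centring. The added gene was Cox7a1 each time, as higher. Between the pristane groups, where none was called, 1 was with a mean of at least 5 FPKM and 1 with the pristane libraries alone (Uqcr11 both times), and 4 were with the replicate number as a block (Ndufa1, Ndufa2, Ndufb11 and Uqcr11). Of all genes, 3 were called in the fit of 5 libraries, 242 with the stricter filter, 40 without the trend, 322 with length-class centring, 431 with the pristane libraries alone and 799 with the block. The deviations of same-numbered libraries had a correlation of 0.045 over genes, and the labels do not say that the numbers pair the libraries. The causes were not tested.

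The medians depended most on quantile normalization and length-class centring. Under quantile normalization in wild-type pristane against PBS, the median was -0.36 over all subunits and -0.28, -0.068, -0.66, -0.16 and -0.65 for complexes I to V; in Irf8KO pristane against PBS it was -0.071 and, by complex, -0.0024, 0.050, -0.23, 0.23 and -0.40; between the pristane groups complex V was at 0.47. The median over all genes moved by less than 0.1 under these scalings. With length-class centring, the median of Irf8KO minus wild-type pristane was 0.15 over all subunits, 0.080 for complex I, 0.26 for IV and 0.23 for V; that of Irf8KO pristane minus PBS was 0.26 over all, and 0.30, 0.45, 0.18, 0.35 and 0.049 for complexes I to V; that of wild-type pristane minus PBS was 0.23 for complex II and -0.075 for III. A planned TMM scaling was tried and moved some medians of complexes II and III in the comparisons with PBS; it was then left out, after its values were seen, because it is a method for counts and the values are FPKM. A pseudocount of 0.1 gave 0.62 for complex II in Irf8KO pristane minus PBS. With each pristane library left out in turn, the median of Irf8KO pristane minus PBS ran from 0.44 to 0.52 over all subunits, from 0.51 to 0.56 for complex I, from 0.61 to 0.62 for II and from 0.27 to 0.34 for V; between the pristane groups it ran from 0.47 to 0.59 for complex V, and in wild-type pristane minus PBS from 0.026 to 0.20 for complex I. Of 210 such medians, 176 moved by less than the spread between replicates, but some of the 210 could not move. Dropping the trend or the filter, or leaving out a library outside the comparison, keeps a difference of group means as it was. The count of 176 therefore overstates how stable the medians were. Without the 50 highest other rows, which held 27.5% to 37.8% of FPKM, the shares of complexes I to V were 0.922%, 0.0842%, 0.396%, 0.858% and 0.952% in PBS, 0.873%, 0.0977%, 0.310%, 0.803% and 0.851% in wild-type pristane and 1.17%, 0.104%, 0.435%, 1.15% and 1.13% in Irf8KO pristane.

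Of 834 values of single genes under the alternatives, 39 changed sign, each of a gene that was not called in that comparison. The 834 also include settings that cannot change a difference of group means, such as dropping the trend. In wild-type pristane minus PBS under quantile normalization, these were Atp5a1 at -0.48, Atp5b at -0.19, Atp5g1 at -0.32, Atp5g3 at -0.45, Cox4i1 at -0.072, Cox6a1 at -0.39, Cox6b1 at -0.18, Cox7a2 at -0.30, Cox7b at -0.33, Ndufa3 at -0.29, Sdhb at -0.0017, Sdhc at -0.13 and Uqcrfs1 at -0.36; with length-class centring, Atp5e at 0.049. Leaving out a library took this difference from -0.045 to 0.18 for Atp5a1, from -0.35 to 0.24 for Atp5e, from -0.30 to 0.019 for Atp5l, from -0.014 to 0.16 for Cox4i1, from -0.062 to 0.31 for Cox6a1, from -0.041 to 0.21 for Cox7b, from -0.35 to 0.12 for Cox8a, from -0.083 to 0.65 for Ndufs4 and from -0.049 to 0.22 for Sdhc. Between the pristane groups, quantile normalization gave Atp5f1 -0.0051 and Sdhb -0.11, and length-class centring gave Cox6b1 -0.21, Cox7c -0.091, Ndufa4 -0.27, Sdhb -0.060 and Uqcrh -0.074. Leaving out a library took the difference from -0.20 to 0.021 for Atp5a1, from -0.092 to 0.47 for Cox6b1, from -0.18 to 0.45 for Ndufa4, from -0.71 to 0.021 for Ndufs4, from -0.084 to 0.39 for Ndufv3, from -0.055 to 0.10 for Sdhb, from -0.065 to 0.36 for Sdhd and from -0.016 to 0.68 for Uqcrh.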
